A study of Mus musculus with 5 samples.

Results

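The mRNAs of the DEAD box (Ddx) and DEAH box (Dhx) RNA helicases were examined in direct RNA sequencing of mouse embryonic stem cells (mESCs), in which each native RNA passes through a nanopore and each adenosine of a read is called as m6A or not. Members were the protein-coding genes of GENCODE M21 (mm10) whose symbol is Ddx or Dhx followed by a digit, 53 of 22028, and positions were taken on their exons and on the strand of the call. The METTL3 inhibition dataset compared 1 library of E14 mESCs treated with 30 µM STM2457, an inhibitor of the m6A methyltransferase METTL3, for 48 h with 1 library treated with the solvent DMSO at 0.025% v/v. Both came from cells with the reporters 2C::3xtbGFP-PEST and Zscan4::mCherry-PEST, a Dox-dependent APOBEC1-YTH-HA-IRES-tdiRFP that was not induced, and a homozygous FKBP12 F36V knock-in at the C-terminus of Mettl3 that was not induced either, and their label gives the genotype as WT. The Mettl5 dataset held 1 untreated WT library and 2 untreated Mettl5KO libraries, each a clone of its own (Mettl5-KO clone #1 and #2), with METTL5 being the methyltransferase that places an m6A on 18S rRNA. No condition other than Mettl5KO had more than 1 library, so the tests between libraries below do not show how much cultures of 1 condition vary.

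DEAD and DEAH box helicases use ATP to open RNA duplexes or to strip proteins from RNA, and they act at nearly every step in the life of an RNA, from pre-mRNA splicing and ribosome assembly to export, translation and decay. m6A is deposited co-transcriptionally by the METTL3-METTL14 complex at adenosines in DRACH motifs (D being A, G or T, R being A or G, and H being A, C or T), mostly in long internal exons, near the stop codon and in the 3′ UTR. Exon junction complexes keep the methyltransferase from exon ends near splice junctions, so that short internal exons carry little m6A.

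The METTL3 inhibition dataset had 71574467 valid calls for DMSO and 54051900 for STM2457, at a median coverage of 64 and 51 per position, and the 3 libraries of the Mettl5 dataset had medians of 45 to 52. Calls that failed the confidence filter were 8.31% to 9.15% of all calls. Stem cell markers were covered for 8 of 8 genes in the METTL3 inhibition dataset, Klf4 by 2 adenosines only, and for 6 of 8 in the Mettl5 dataset, where Klf4 and Esrrb had no position. The 7 differentiation markers had no position in either. No position of Mettl5 itself was analysed in either dataset, so the knockout labels were not checked on that gene.

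Of the 53 members, 21 had at least 1 position in the METTL3 inhibition dataset, with 5047 adenosines in all, and 6 in the Mettl5 dataset, with 3070. These 6 were Ddx21, Ddx39, Ddx39b, Ddx3x, Ddx5 and Dhx15, of which Ddx3x alone had no position in the other dataset. Positions have at least 25 valid calls in every library of a dataset, and reads start at the poly(A) tail, so that the covered part of an mRNA lies mostly toward its 3′ end. By role, positions in the METTL3 inhibition dataset fell on 7 of 13 members of pre-mRNA splicing and export, 8 of 16 of ribosome biogenesis, 2 of 10 of translation, pore export, decay and storage, 2 of 2 mitochondrial helicases, 1 of 3 RNA sensors, 0 of 3 germ cell helicases and 1 of 6 others. The 31 members with no position in either dataset were not analysed further: Ddx10, Ddx11, Ddx18, Ddx19b, Ddx23, Ddx25, Ddx31, Ddx3y, Ddx4, Ddx42, Ddx43, Ddx46, Ddx50, Ddx52, Ddx55, Ddx59, Ddx6, Ddx60, Dhx29, Dhx32, Dhx33, Dhx34, Dhx35, Dhx36, Dhx37, Dhx38, Dhx40, Dhx57, Dhx58, Dhx8 and Dhx9. Reads of close paralogs (Ddx39 and Ddx39b, Ddx5 and Ddx17, Ddx19a and Ddx19b, Ddx3x and Ddx3y) could be split between genes by the alignment, which was not checked.

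At their m6A sites, helicase mRNAs lost most of the modification after METTL3 inhibition. An m6A site was a position with more than 25 valid calls in each library of a dataset and a methylation level (m6A calls as a percent of valid calls) that reached 25% in at least 1 library. In the METTL3 inhibition dataset 63 sites lay on 13 members, among 6159 sites on 1669 genes. Their mean level was 54.8% in DMSO and 16.2% in STM2457, beside 56.3% and 16.2% over all sites. The relative decrease, the fall as a share of the DMSO level, was 70.7% ± 28.1 (SD over 63 sites) with a median of 77.6%, beside a median of 79.9% over all sites. The level was lower in STM2457 at 61 of the 63 sites, and 58 (92.1%) passed Fisher's exact test (two-sided, adjusted over all 6159 sites), beside 91.6% of all sites. No member site was called higher, beside 0.292% of all sites. The helicase sites therefore lay at the background of all mRNAs in how often and how far they fell. The coverage behind these levels was 26 to 303 valid calls in DMSO, median 47, and 26 to 187 in STM2457, median 42. The test and the exact binomial 95% intervals cover counting error only, and calls on 1 read are not independent. Sites were selected on the same calls: 62 of the 63 reached 25% in DMSO, and 11 of these also in STM2457. Most sites thus entered through DMSO alone, which favours a fall, here as over all sites. How much of the fall this selection makes was not tested.

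**Figure D1:**
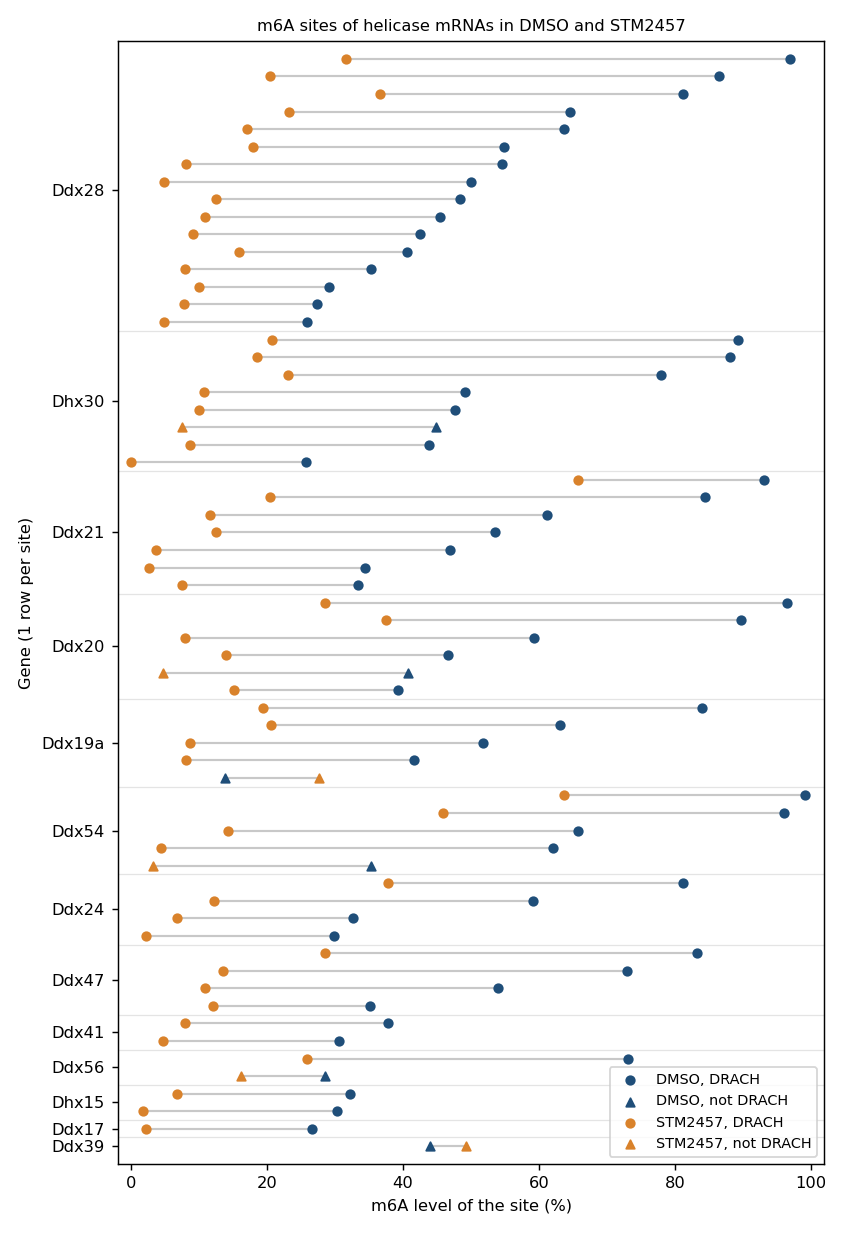
m6A level (%) of each of the 63 helicase sites in DMSO (blue) and STM2457 (orange), 1 row per site, grouped by gene and ordered by DMSO level within a gene. Circles are DRACH sites and triangles are other sites, and 61 of 63 sites lie lower in STM2457, the 2 that do not being triangles on Ddx19a and Ddx39.

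The plot of site levels by gene shows that sites of one mRNA differed widely in DMSO. On Ddx28 the 16 sites ran from 25.8% to 96.9% in DMSO and from 4.76% to 36.6% in STM2457. On Ddx21 the 7 sites ran from 33.3% to 93.1% and from 2.63% to 65.7%. The range from lowest to highest thus narrowed on Ddx28 and did not on Ddx21. On Ddx21 the upper end in STM2457 was 1 site, at 65.7% of 35 calls, and the next highest site was at 20.5%.

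Ribosome biogenesis helicases carried 22 sites on 5 members (Ddx21, Ddx24, Ddx47, Ddx54 and Ddx56), of which 21 were called lower, with mean levels of 59.8% in DMSO and 19.2% in STM2457. Ddx54 (ENSMUSG00000029599.13, chr5:120612739-120628592, plus strand), a nucleolar DEAD box protein, held the most methylated member site in DMSO and, among those with at least 50 valid calls in both libraries, also in STM2457. Its 5 sites lay in the 3′ UTR, 46 to 318 nt after the stop codon. Of these, 4 form 2 close pairs, whose sequences (mm10, plus strand, 5′ to 3′) are shown because neighbours a few bases apart responded unequally. The capitals are the called adenosine with 2 bases on each side, here and in every sequence below.
Ddx54 chr5:120627427-120627447: gctgctttTGACTgggacatt
Ddx54 chr5:120627433-120627453: tttgactgGGACAttgggtga
Ddx54 chr5:120627328-120627348: ccgggtgtGGACGtcagggac
Ddx54 chr5:120627337-120627357: gacgtcagGGACTatgtccat

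The adenosine in GGACA was m6A in 99.1% of 115 calls in DMSO (95% interval 95.25 to 99.98) and in 63.7% of 91 calls in STM2457 (53.0 to 73.6), a relative decrease of 35.7% (Fisher's exact test, adjusted p = 4.5e-12). Its neighbour 6 nt upstream, in TGACT, fell from 62.0% of 108 calls to 4.35% of 92 (1.2 to 10.8), a relative decrease of 93.0% (Fisher's exact test, adjusted p = 2.1e-18). In STM2457 the 2 intervals do not overlap, although many of the same molecules cross both positions. The other pair, 9 nt apart, had the same order. The GGACT site fell from 96.0% of 125 calls to 45.9% of 98, and the GGACG site, which is not DRACH, fell from 35.2% of 122 calls to 3.19% of 94, with relative decreases of 52.2% and 90.9%. The last Ddx54 site, in AAACT, fell from 65.8% of 114 calls to 14.3% of 98. In both pairs the neighbour that was higher in DMSO kept the larger share of its level. Over the other close pairs this was so for Ddx20 (11 nt apart, relative decreases of 70.0% for the site at 46.7% and 88.6% for the site at 40.7%) and for one pair of Ddx28 (11 nt apart, 54.97% for the site at 81.2% and 61.1% for the site at 40.6%). It was not so for the other pair of Ddx28 (8 nt apart, 74.2% for the site at 48.4% and 65.6% for the site at 29.0%). The Ddx20 and Ddx28 pairs rest on 27 to 32 calls per site in DMSO and 38 to 50 in STM2457. Within each of them the STM2457 intervals overlapped. The DMSO intervals also overlapped for Ddx20 and for the Ddx28 pair 8 nt apart, so which neighbour was higher is not settled there.

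Ddx47 (ENSMUSG00000030204.10, chr6:135011612-135023776, plus strand), a factor of early pre-rRNA processing, had 4 sites in its 3′ UTR, 13, 111, 136 and 250 nt after the stop codon. In that order they fell from 35.1% to 12.1%, from 72.9% to 13.5%, from 83.2% to 28.6% and from 54.0% to 10.9%, on at least 131 calls in DMSO and 89 in STM2457. These intervals were among the narrowest of the family, and at none of the 4 sites did the DMSO and STM2457 intervals overlap. The site at 83.2% (95% interval 75.9 to 89.0) kept the highest level, 28.6% (19.9 to 38.6).

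Ddx21 (ENSMUSG00000020075.8, chr10:62580251-62602281, minus strand), a nucleolar helicase that couples rRNA gene transcription to pre-rRNA processing, had 7 sites, 4 around its stop codon and 3 in exon 2, which is 660 nt long. The site 17 nt after the stop codon showed the smallest relative decrease of all DRACH sites of the family, 29.4%. It was m6A in 93.1% of 29 calls in DMSO (77.2 to 99.2) and in 65.7% of 35 in STM2457 (47.8 to 80.9), so that the intervals overlapped, with an adjusted p of 0.015 by Fisher's exact test. Its neighbours at 84.4%, 53.6% and 34.4% in DMSO fell to 20.5%, 12.5% and 2.63%.
Ddx21 chr10:62582323-62582343: gccagaagGGACTgttcccac

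The exon 2 sites of Ddx21 sit in a tandem repeat of the coding sequence, 111 nt from one to the next. They are shown (minus strand, 5′ to 3′, in transcript order) because 2 of them have the same 21 bases.
Ddx21 chr10:62598519-62598539: tgaagaatGGACTctcccaac
Ddx21 chr10:62598408-62598428: tgaagaatGGACTctcccaac
Ddx21 chr10:62598297-62598317: tgaaggatGGACTctcccaac

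Around the first 2 sites 109 of 111 bases were identical, and around the last 2 of them 78 of 111. The 17 bases that the 3 sites share from GGACT onward occurred 3 times in the Ddx21 transcript, and all 3 copies were m6A sites. In transcript order the levels in DMSO were 33.3% of 51 calls (20.8 to 47.9), 46.9% of 49 (32.5 to 61.7) and 61.2% of 49 (46.2 to 74.8). The levels were higher toward the 3′ end, but neighbouring intervals overlapped, so that the copies with the same 21 bases did not differ beyond counting error. After STM2457 the levels were 7.41% of 27, 3.70% of 27 and 11.5% of 26, and all 3 were called lower. How far a repeat read could be aligned to another copy was not tested.

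Ddx24, which acts in assembly of the large ribosomal subunit, had all 4 of its sites in exon 2, which is 726 nt long. They stood at 81.2%, 59.2%, 32.6% and 29.8% in DMSO and at 37.8%, 12.2%, 6.67% and 2.13% in STM2457. Ddx56, a nucleolar helicase of large subunit assembly, had 1 DRACH site 103 nt after its stop codon, which fell from 73.1% of 26 calls to 25.9% of 27. The other covered members of this role, Ddx27, Ddx49 and Ddx51, had no site. Ddx51 had no position with more than 25 calls in both libraries, and Ddx27 had 1 DRACH position above that coverage.

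The mitochondrial helicases held 24 sites, 22 of them called lower, with mean levels of 54.7% in DMSO and 14.1% in STM2457. Ddx28 (ENSMUSG00000045538.6, chr8:106009621-106011882, minus strand), a helicase of mitochondrial ribosome assembly, had the most sites of any member, 16, and is the only covered member with a single exon. Its sites spread over the coding sequence, from 1234 nt before the stop codon, into the 3′ UTR, 134 nt after it. Most methylated was a GGACT site 1033 nt before the stop codon, at 96.9% of 32 calls in DMSO and 31.6% of 38 in STM2457.
Ddx28 chr8:106010825-106010845: tcagacctGGACTcccgcagt

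The 2 Ddx28 sites that were not called both started low, at 27.3% and 29.0% in DMSO on 33 and 31 calls. In STM2457 they had 3 m6A calls of 39 and 4 of 40, with adjusted p of 0.058 and 0.067 by Fisher's exact test.

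Dhx30 (ENSMUSG00000032480.17, chr9:110084320-110117830, minus strand), a DEAH box protein of mitochondrial RNA granules, had 6 sites in exon 12, which is 837 nt long, and 2 in the last exon. The exon 12 sites fell from 89.3%, 88.1%, 78.0%, 49.1%, 47.6% and 44.9% to 20.7%, 18.5%, 23.1%, 10.7%, 10% and 7.41%. These sites lay 1780 to 2419 nt before the stop codon, far from the 3′ end. The highest of them was in GAACT.
Dhx30 chr9:110087831-110087851: tcagccatGAACTgggcccct

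In the last exon of Dhx30 the site at 43.8% fell to 8.70%, and the site at 25.8% of 66 calls had 0 m6A calls of 42, which allows a level of up to 7.14% (3 counts). That site lies just inside the threshold of 25% in DMSO. Just outside it was a position in the last coding exon of Ddx5, in GGACG, with 23.5% of 34 calls in DMSO and 0 of 47 in STM2457.

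Of the splicing and export helicases, 4 of 7 covered members had 6 sites, with mean levels of 33.5% in DMSO and 12.1% in STM2457, and 5 were called lower. Ddx41, a spliceosome helicase also known as a sensor of foreign nucleic acids, had a site 7 nt before the stop codon and another 43 nt after it, which fell from 30.6% of 85 calls to 4.62% of 65 and from 37.8% of 74 to 7.94% of 63. Dhx15, which takes apart spliceosomes after splicing, had sites 54 nt before and 15 nt after the stop codon that fell from 30.3% to 1.75% and from 32.1% to 6.78%. Ddx17, a partner of Ddx5 in splicing and transcription, had 1 site far into the 3′ UTR, 2146 nt after the stop codon, which fell from 26.5% of 49 calls to 2.13% of 47. Ddx5, Ddx39b (the export factor UAP56) and Dhx16 (the DEAH box ATPase that activates the spliceosome) had no site on 40, 16 and 12 DRACH positions.

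Ddx20 (ENSMUSG00000027905.15, chr3:105678270-105687574, minus strand), the Gemin3 subunit of the SMN complex that assembles spliceosomal snRNPs, had 6 sites, all called lower, with mean levels of 62.0% in DMSO and 17.9% in STM2457. The 4 in the coding sequence of the last exon lay 413 to 696 nt before the stop codon and stood at 40.7%, 46.7%, 96.4% and 59.3% in DMSO and at 4.65%, 14%, 28.6% and 7.84% in STM2457. The 2 in the 3′ UTR fell from 89.7% to 37.5% and from 39.3% to 15.1%. Ddx19a (ENSMUSG00000015023.7, chr8:110974996-110997800, minus strand), the helicase that releases proteins from mRNA at the nuclear pore, had 4 DRACH sites 95 to 355 nt after its stop codon, which fell from 83.9%, 63.2%, 51.7% and 41.7% to 19.4%, 20.6%, 8.57% and 8.11%. Ddx1, a helicase of the tRNA ligase complex, and Ddx58, the viral RNA sensor RIG-I, had no site. Ddx58 was covered at 4 adenosines, none above 25 calls in both libraries.

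Relatives of the superfamily under other names were covered for 3 of 17 genes, Eif4a1, Eif4a2 and Snrnp200. They had 4 sites on 2 genes, all called lower, with mean levels of 48.6% in DMSO and 7.73% in STM2457.

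Over the whole family, 5 sites were not called lower: the 2 on Ddx28 above and 3 whose adenosine is followed by T and not by C. These 3 are printed because they are the sites whose sequence does not resemble DRACH (mm10, Ddx39 on the plus strand, the others on the minus strand).
Ddx39 chr8:83721014-83721034: aactgtccTCATGttgtggtg
Ddx19a chr8:110975106-110975126: aataaggtTTATAaatcagtg
Ddx56 chr11:6266949-6266969: aggtcctgTAATGgagcaggc

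The Ddx39 site, in exon 5 of a paralog of the export factor UAP56 (ENSMUSG00000005481.18), was at 43.9% of 303 calls in DMSO (38.2 to 49.7) and 49.2% of 187 in STM2457 (41.8 to 56.6), with an adjusted p of 0.28 by Fisher's exact test. Of the 62 sites at 25% or more in DMSO it alone had a relative decrease under 25%, a share of 1.61% (95% interval 0.0408 to 8.66), beside 4.31% of all such sites. The Ddx19a site, 913 nt after the stop codon, was at 13.7% of 51 calls in DMSO and 27.6% of 29 in STM2457, with an adjusted p of 0.15 (Fisher's exact test). The Ddx56 site, in exon 3 and 12 nt from a junction, was at 28.6% of 28 calls in DMSO and 16.1% of 31 in STM2457, with an adjusted p of 0.36 (Fisher's exact test).
At these 3 positions 36.1%, 20.3% and 44.0% of the DMSO calls had failed the confidence filter, in the order Ddx39, Ddx19a and Ddx56, beside 3.73% over the 57 DRACH sites of the family. With failed calls added to the denominator, the Ddx19a site (10.9% in DMSO and 20% in STM2457) and the Ddx56 site (16% and 8.47%) were under 25% in both libraries, while the Ddx39 site (28.1% and 30.3%) was not.

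The remaining 3 sites outside DRACH had an adenosine followed by C, and all 3 were called lower. They are the Ddx54 site in GGACG printed above and the following 2 (mm10, minus strand).
Ddx20 chr3:105678953-105678973: cactgaatGTACTcctgtggg
Dhx30 chr9:110087544-110087564: ttttcccgATACTttgggggc

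Their failed calls in DMSO were 3.17% on Ddx54, 10% on Ddx20 and 16.9% on Dhx30. In all, 57 of the 63 sites (90.5%) were in DRACH motifs of the transcript strand, beside 88.7% of all sites. Of the 57, 55 (96.5%) were called lower, beside 97.5% of all DRACH sites. Their mean relative decrease was 74.7% ± 13.3 (SD over sites), beside 77.4% ± 16.5 over all DRACH sites.

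**Figure D2:**
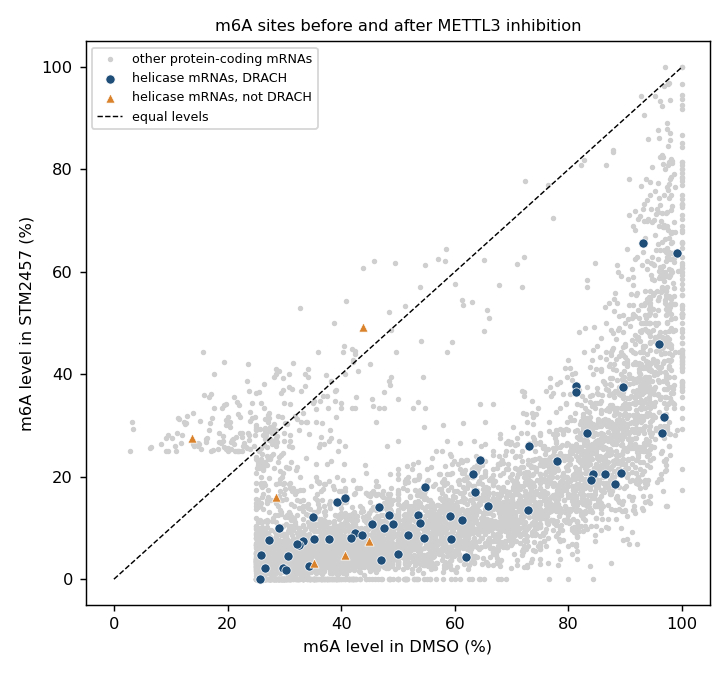
m6A level (%) of each site in DMSO (x axis) and in STM2457 (y axis), with helicase sites in a DRACH motif as blue circles, other helicase sites as orange triangles and the sites of all other protein-coding mRNAs in grey. All 57 DRACH sites of the family lie under the line of equal levels, and 2 of the 6 triangles lie above it.

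The scatter of DMSO against STM2457 levels bends: sites near complete methylation in DMSO lie farther above 0 than the rest. Of 14 member sites at 80% or more in DMSO, on 8 genes, 9 (64.3%) were still at 25% or more in STM2457, beside 70.4% of all such sites. Of the 18 sites at 25% to 40% in DMSO, 0 were, beside 5.39% of all such sites. On DRACH sites alone, 0 of 16 in this class were, beside 0.125% of 1605 over all mRNAs. The median relative decrease was 66.5% in the first class and 79.3% in the second, and 63.7% and 86.4% over all sites. Levels in DMSO both define the classes and enter the decrease, and the classes are given as a description.

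By motif, GGACT and GAACT were most often methylated on helicase mRNAs, with 13 sites on 25 covered positions (52.0%) and 12 on 23 (52.2%), beside 55.2% and 35.9% over all mRNAs. The median DMSO level was 83.2% for GGACT sites and 45.8% for GAACT sites, beside 73.7% and 58.1% over all mRNAs. GGACA held 9 sites on 41 positions (21.95%) and AGACT 6 on 26 (23.1%), beside 31.9% for each over all mRNAs. TGACA and TGACC, the most common motifs without a site, had 0 on 30 and 26 positions, beside 2.39% and 0.68% over all mRNAs. Motifs were read on the transcript strand with the called adenosine in the middle, and a covered position had more than 25 calls in both libraries.

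By place, 24 of the 63 sites lay in the 3′ UTR, 24 in the coding sequence of the last exon, 15 in the coding sequence of internal exons and 0 in the 5′ UTR. The family had 0 covered DRACH positions in the 5′ UTR, so nothing is shown about that place. Over all 6159 sites 65.3% lay in the 3′ UTR, 22.9% in the coding sequence of the last exon and 7.79% in that of internal exons, while the family had 38.1%, 38.1% and 23.8%. Ddx28 accounts for 14 of the 24 last-exon sites, since its whole coding sequence is in its only exon, and without it the counts were 22, 10 and 15. Counts of sites follow which parts of an mRNA were covered, so the sites were also taken as a share of covered DRACH positions. In all, 57 of 421 DRACH positions of the family were sites, beside 14.4% over all mRNAs. The share was 20.8% in the 3′ UTR (22 of 106), 22.3% in the coding sequence of the last exon (23 of 103) and 5.74% in that of internal exons (12 of 209, 95% interval 3.0 to 9.81). Over all mRNAs the shares were 18.8%, 17.1% and 3.62%. Without Ddx28, the share of the family in the coding sequence of the last exon was 14.8% (9 of 61, 95% interval 6.98 to 26.2). In both, internal exons had the lowest share, and the shares of the other 2 places on helicase mRNAs had overlapping intervals.

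**Figure D3:**
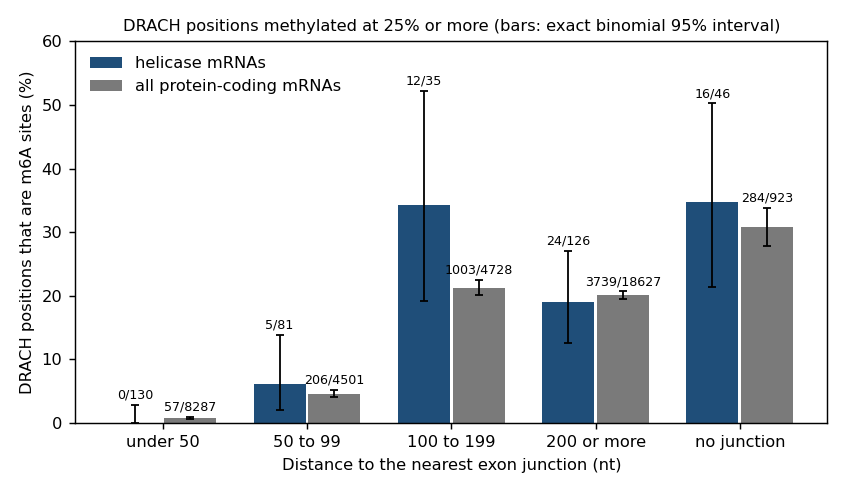
Share (%) of covered DRACH positions that were m6A sites, by distance in nt to the nearest exon junction of the transcript, for helicase mRNAs (blue) and all protein-coding mRNAs (grey), with exact binomial 95% intervals and the counts above each bar. Helicase mRNAs had 0 sites on 130 positions within 50 nt of a junction and 12 on 35 positions from 100 nt to under 200 nt.

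The plot by distance to a junction shows where sites were missing. Within 50 nt of an exon junction 0 of 130 DRACH positions, on 14 helicase genes, were sites, which allows a share of up to 2.31% by 3 counts and of 2.80% by the exact interval plotted, and over all mRNAs 0.688% were (57 of 8287). The share on helicase mRNAs was 6.17% at 50 to 99 nt (5 of 81), 34.3% from 100 nt to under 200 nt (12 of 35), 19.05% at 200 nt or more (24 of 126) and 34.8% on the single exon of Ddx28 (16 of 46). Over all mRNAs these shares were 4.58%, 21.2%, 20.1% and 30.8%. The nearest DRACH site to a junction was 54 nt away, on Ddx24.

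Within the coding sequence of internal exons, all DRACH sites of the family lay in long exons. In internal exons under 400 nt, 0 of 168 DRACH positions were sites, which allows up to 1.79%, and in longer ones 12 of 41 were (29.3%, 95% interval 16.1 to 45.5). The 12 lay in the 3 long exons named above, exon 2 of Ddx21, exon 2 of Ddx24 and exon 12 of Dhx30. The sites outside DRACH on Ddx39 and Ddx56 lay in short exons, of 184 and 161 nt. Over all mRNAs the shares were 0.624% and 22.1%. The limits of 50 and 400 nt were chosen after the data were seen.

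**Figure D4:**
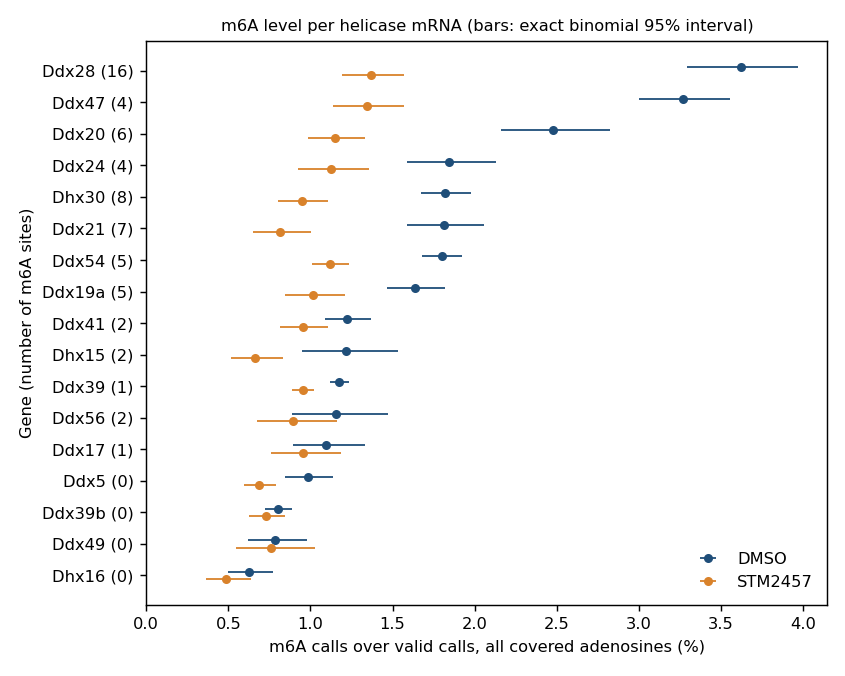
m6A level per mRNA (%), the m6A calls over the valid calls of all covered adenosines of a gene, in DMSO (blue) and STM2457 (orange) for the 17 members with at least 100 covered adenosines, with exact binomial 95% intervals and the number of sites in parentheses. Levels ran from 0.623% (Dhx16) to 3.62% (Ddx28) in DMSO and were lower in STM2457 for all 17.

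Per mRNA, the level was taken as the m6A calls over the valid calls of all covered adenosines, which sets it per adenosine. The covered part differs between genes (126 adenosines on Ddx47 and 583 on Ddx5), and site shares differ by place. The order of genes is therefore one of covered parts and not of whole mRNAs. The level was lower in STM2457 in 17 of 17 members with at least 100 covered adenosines, from a median of 1.22% to 0.953%. Over all mRNAs it was lower in 1740 of 1781 genes, from 1.65% to 0.908%. Ddx28 was highest, at 3.62% (95% interval 3.30 to 3.97) in DMSO and 1.37% (1.19 to 1.57) in STM2457. Ddx47 followed at 3.27%, which did not differ from Ddx28 beyond counting error, and Ddx20 at 2.48% (2.16 to 2.83), which lay below both. Ddx24, Dhx30, Ddx21, Ddx54 and Ddx19a followed between 1.64% and 1.84%, with overlapping intervals. Among members with at least 200 adenosines the lowest were Ddx5 (0.982%), Ddx17 (1.10%) and Ddx39 (1.18%). In STM2457 the order was compressed, with all 17 between 0.487% and 1.37%.

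The smallest relative decreases were those of Ddx49 and Ddx39b, which had no site. Ddx49, a ribosome biogenesis helicase, had 0.786% (0.622 to 0.980) in DMSO and 0.759% (0.545 to 1.03) in STM2457, and Ddx39b had 0.804% (0.725 to 0.888) and 0.730% (0.628 to 0.843), so that for both the intervals overlapped. Ddx5 had no site either but went from 0.982% (0.844 to 1.14) to 0.686% (0.594 to 0.790). The median relative decrease per mRNA was 37.7% over the 17 members, range 3.46% to 62.1%, beside 46.5% over all mRNAs. On DRACH positions alone it was 74.3%.

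The number of valid calls per position also changed for some helicase mRNAs, a measure of read depth and, between bulk libraries, one in which fewer cells with the RNA and less RNA per cell cannot be told apart. Scaled by the total valid calls of the libraries, the ratio of mean depth in STM2457 to that in DMSO had a median of 1.08 over the 19 members with at least 20 positions and of 1.08 over 2490 genes. Of these, 3 members were at 2-fold or more in STM2457: Dhx15 (2.54), Ddx20 (2.32) and Ddx5 (2.07), which is 15.8% of 19, beside 3.61% of all genes. Unscaled, the mean depth went from 33.8 to 64.9 calls for Dhx15, from 28.1 to 49.2 for Ddx20 and from 31.1 to 48.5 for Ddx5. No member was at 2-fold or more lower, beside 0.522% of all genes. The 13 members with a site had a median ratio of 1.08 and the 6 without one of 1.05. Since positions enter only at 25 or more calls in both libraries and there is 1 library per condition, these ratios were not tested.

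In Mettl5-KO cells no helicase site was called in both clones, and hardly any site of other mRNAs was. The Mettl5 dataset had 16 sites on 5 members among 1847 sites on 569 genes: 8 on Ddx3x, 5 on Ddx21 and 1 each on Ddx39, Ddx5 and Dhx15. On average they stood at 38.0% in WT, at 34.4% in clone #1 and at 33.0% in clone #2, beside 44.1%, 46.6% and 46.6% over all sites. By Fisher's exact test (two-sided, each clone against WT) 0 of 16 were called at an adjusted p below 0.05 in both clones, beside 0.0541% of all sites lower and 0% higher, and 0 at an unadjusted p below 0.05 in both, beside 0.325% lower and 1.84% higher. None changed by a log2FC of 1.5 in both clones, beside 0.217% of all sites lower and 1.14% higher. Of the 16 sites, 9 were lower and 3 higher than WT in both clones, beside 23% and 45.2% of all sites, a direction that was not tested and in which both clones share the WT library.

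**Figure D5:**
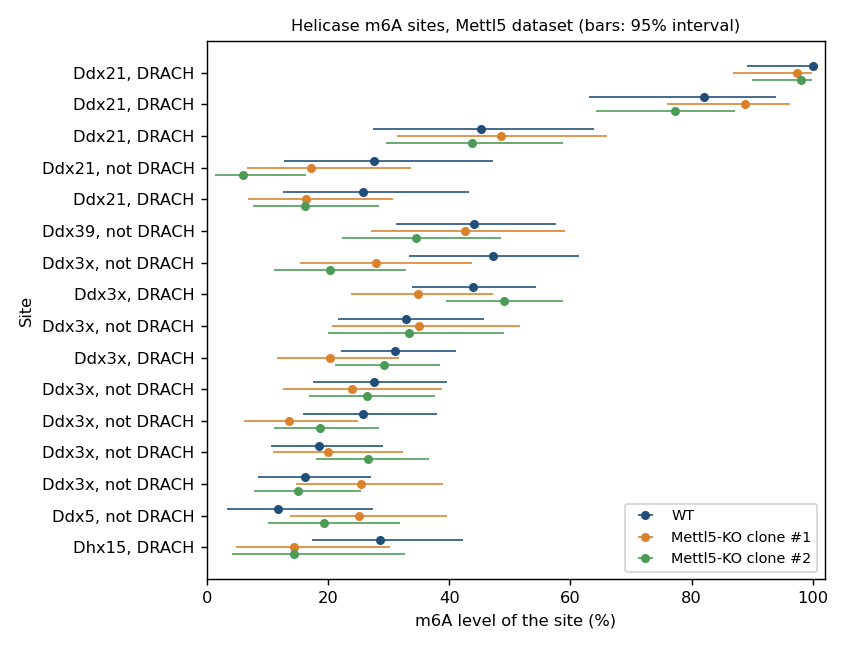
m6A level (%) of the 16 helicase sites of the Mettl5 dataset in WT (blue), Mettl5-KO clone #1 (orange) and clone #2 (green), 1 row per site, with exact binomial 95% intervals. The levels of the 3 libraries lie close together at most sites, and the largest gaps from WT, on Ddx3x at 47.2% and Ddx21 at 27.6% in WT, are at sites outside DRACH motifs.

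At an unadjusted p below 0.05, clone #1 had 0 member sites and clone #2 had 2, beside 6.5% and 7.53% of all sites, and neither of the 2 passed adjustment. The Ddx3x site in TTAAC was m6A in 47.2% of 53 calls in WT, 27.9% of 43 in clone #1 and 20.3% of 59 in clone #2. By Fisher's exact test the unadjusted p was 0.061 and 0.0045, and the adjusted p 0.72 and 0.31. The Ddx21 site in CCAGT was at 27.6% of 29 calls in WT, 17.1% of 35 in clone #1 and 5.88% of 51 in clone #2, with unadjusted p of 0.37 and 0.014 by Fisher's exact test. Both were lower in both clones, by unequal amounts.
Ddx3x chrX:13287485-13287505: tactgggaTTAACtttgagaa
Ddx21 chr10:62581668-62581688: tttctgttCCAGTgaagtctc

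Ddx3x (ENSMUSG00000000787.12, chrX:13280970-13294052, plus strand), which helps translation start on structured mRNAs, was covered at 1238 adenosines, 93 of them DRACH. Only 2 of its 8 sites were DRACH, both in the 3′ UTR, 66 and 90 nt after the stop codon. They stood at 31.0% and 43.9% in WT, 20.3% and 34.8% in clone #1, and 29.2% and 49.1% in clone #2. The 4 sites in its coding sequence were outside DRACH and lay 26 to 33 nt from a junction. In the whole family 7 of 16 sites (43.8%) were DRACH, beside 79.4% of all sites of this dataset. The sites outside DRACH had failed calls of 25.9% to 27.8% in the 3 libraries, beside 1.30% to 2.72% for the DRACH sites. Of the DRACH positions of the family within 50 nt of a junction 0 of 60 were sites in this dataset, which allows up to 5%, beside 0.641% of all such positions. The family also had 0 sites on 36 positions at 50 to 99 nt, 4 on 16 from 100 nt to under 200 nt and 3 on 131 at 200 nt or more. At 50 nt or more 7 of 183 were (3.83%, 95% interval 1.55 to 7.72), beside 12.2% over all mRNAs, and over all distances 9.92% of the DRACH positions of all mRNAs were sites. By gene, over all distances, the sites were 2 of 93 on Ddx3x, 0 of 62 on Ddx5 and 4 of 47 on Ddx21. They were 0 of 20 on Ddx39, 0 of 13 on Ddx39b and 1 of 10 on Dhx15. In the METTL3 inhibition dataset, without Ddx3x, the family share at 50 nt or more was 16.9% (41 of 242), beside 17.8% over all mRNAs.

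Per mRNA, the levels in WT, clone #1 and clone #2 were 1.87%, 1.84% and 1.80% for Ddx21, 1.477%, 1.531% and 1.498% for Ddx39, 1.37%, 1.42% and 1.38% for Ddx5 and 1.08%, 1.06% and 1.14% for Ddx39b. For Ddx3x they were 1.43%, 1.23% and 1.30%, and for Dhx15 1.79%, 1.34% and 1.60%, both lower in both clones. For the first 4 genes the 3 libraries differed by less than 0.1 percentage points.

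Ddx21, Dhx15 and Ddx39 had 7 sites of the METTL3 inhibition dataset that were also covered in the Mettl5 dataset, and these show both perturbations at the same adenosines. The Ddx21 site 17 nt after the stop codon was at 93.1% in DMSO and 65.7% in STM2457, and at 100%, 97.5% and 98.1% in WT, clone #1 and clone #2. The Ddx21 site 125 nt after it was at 84.4% and 20.5%, and at 82.1%, 88.9% and 77.2%. In DMSO and WT these near-complete sites had similar levels, while STM2457 lowered them and neither clone differed from WT at an unadjusted p below 0.05. The Ddx39 site in TCATG was at 43.9% in DMSO, 49.2% in STM2457, 44.1% in WT, 42.5% in clone #1 and 34.5% in clone #2. Its m6A calls were thus seen in all 5 libraries, but these levels leave out failed calls. Failed calls numbered 33 beside 59 valid calls in WT, 37 beside 40 in clone #1 and 36 beside 55 in clone #2. Levels with failed calls in the denominator would be lower and are not given here for WT and the clones. The Dhx15 site 54 nt before the stop codon was at 30.3% of 33 calls in DMSO and at 12.1% of 58 in WT. This gap was picked from the 7 sites after their values were seen, and it was not tested against counting error. The datasets also differ in cell line and in the batch of their labels, and which of these the gap goes with was not tested.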

How the data were processed

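Direct RNA sequencing libraries of mESCs were grouped by their labels (DMSO, STM2457, WT, Mettl5KO with 2 clones). Per the methods of the study, the authors demultiplexed reads with WarpDemuX, used dorado to call bases and m6A and to align to mm10, and produced the deposited counts of valid, m6A, unmodified and failed calls per position with modkit pileup. The deposited percent is the m6A calls as a percent of the valid calls. It leaves out failed calls, so a level can rest on fewer reads than cross the position. Positions were matched by strand to exons and transcripts of GENCODE M21, with 1 transcript per gene (APPRIS principal, then longest coding sequence), and the transcript base was A at 99.8% and 99.9% of the positions of the 2 datasets, at all but 2 and 1 of those of the members. Sequences came from the GENCODE M21 transcripts.

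Sites had more than 25 valid calls in each library and 25% or more in at least 1. Fisher's exact test (two-sided) was run per site on m6A and other valid calls, with Benjamini-Hochberg adjustment at 0.05 over all sites of a dataset (scipy 1.17.1 under Python 3.11.15), and was tested on simulated data. With 1 library per condition it compares libraries. Shares have exact (Clopper-Pearson) 95% intervals, and a count of 0 is given with the share that 3 counts would make.

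The members, role lists, markers and tests were chosen with earlier results of these data known. Named were the 12 members with most sites, the 3 highest and 3 lowest gene levels among members with at least 200 adenosines, the 10 highest sites with at least 50 calls in both libraries, sites with a relative decrease under 25%, sites changed in the clones (log2FC of 1.5 in both, or adjusted p below 0.05 in either), and the sites nearest 25% in DMSO. Other sites were named after their values were seen. Alternatives were other coverage and methylation thresholds, DRACH motifs only, levels over valid plus failed calls, selection in DMSO only, another transcript, equal weights for positions, and 1 clone at a time. A minimum of 25 calls and the family without Ddx28 were added once the data had been seen.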

Additional observations from a re-analysis of the deposited data

How the results depend on the processing

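The number of helicase sites called lower after STM2457, 58 of 63, stayed within 1.5 times under 7 alternatives. One of these, a threshold of 10%, gave 77 of 150, a far lower share. At a coverage of 50 or more it was 11 of 12 sites, and with a threshold of 50% it was 31 of 31. With a threshold of 10%, the mean relative decrease was 33.2% ± 109 (SD over 150 sites) with a median of 75.4%, and 14 of the 127 sites at 10% or more in DMSO had a relative decrease under 25%, while 0 had with a threshold of 50% or on DRACH sites alone. Sites in the 3′ UTR, the coding sequence of the last exon and that of internal exons numbered 10, 1 and 1 with at least 50 calls, and 15, 10 and 6 with a threshold of 50%. On DRACH positions alone the median relative decrease per mRNA was 74.3%. The counts are smaller because fewer sites are kept, and for the other changes the cause was not tested. Shares of all sites under these alternatives are not given here, so these counts have no background beside them.

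The count of sites changed in both Mettl5-KO clones was 0 by Fisher's exact test under all 7 alternatives. Leaving out either clone gave 0 to 0 adjusted calls, with 2 unadjusted calls without clone #1 and 0 without clone #2. No paired analysis was possible because WT, DMSO and STM2457 have 1 library each, so that the groups compared share fewer than 2 replicate numbers. At 26 to 50 calls the interval of a level is wide, so a site near 25% can fall on either side of the threshold. Differences between a clone and WT of the size seen on Ddx3x could not be separated from counting error after adjustment.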

Other observations

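The files also count calls of modifications other than m6A at adenosines (inosine or 2′-O-methylated A, by the class the basecaller gave), which entered none of the comparisons above. Helicase mRNAs had 5047 adenosines in the METTL3 inhibition dataset and 3070 in the Mettl5 dataset, and these calls reached 25% or more of the valid calls at 4 positions. The share over all mRNAs is not given here. In Ddx39b (chromosome 17, position 35253354, coding sequence) the share was 34.1% of 167 calls in DMSO, 35.2% of 91 in STM2457, 32.3% of 31 in WT, 34.6% of 26 in clone #1 and 21.4% of 42 in clone #2, with at most 1 m6A call in any library. In Ddx39 it was 32.3% and 32.9% at position 83723232 and 27.2% and 25.1% at position 83723270 of chromosome 8, in DMSO and STM2457 in that order, both off the transcript chosen for that gene. In Dhx30 (chromosome 9, position 110084351, 3′ UTR) it was 26.7% of 45 calls in DMSO and 38.7% of 31 in STM2457. At the Ddx39b and Ddx39 positions the DMSO and STM2457 shares differed by less than 3 percentage points.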
